A study of Homo sapiens with 15 samples.

Results

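The integrated stress response was followed through 10 genes of the ATF4 programme in treated HT1080 cells, a human fibrosarcoma line. The 10 genes were chosen by name (ATF4, ATF3, DDIT3, TRIB3, CHAC1, SESN2, ASNS, PSAT1, PHGDH and DDIT4), out of 60675 genes in the count table. Each of the 10 passed the filter on low counts, together with 19535 genes in all. RNA-seq libraries were available from 15 samples in 5 groups of 3. The 6CD1m and 6CD2m lines carry a substitution in the first (H216A) or the second (H611A) catalytic domain of the lysine deacetylase KDAC6, and both were treated with 1 µM Tubastatin A, a KDAC6 inhibitor, for 2 days. The 8CDm line carries H143A in KDAC8 and was treated with 5 µM PCI-34051, a KDAC8 inhibitor, for 2 days. WT cells were treated for 14 days with 1 µM Tubastatin A or with 5 µM PCI-34051. All 5 groups had thus received an inhibitor, and untreated cells were not analysed here.

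In the comparisons of a mutant line with WT cells, line and treatment time (2 or 14 days) cannot be told apart. In 6CD2m against 8CDm cells, the line changed with the inhibitor and its dose. The 6CD1m and 6CD2m cells had the same dose and time, and the pair of WT groups differed in the inhibitor with its dose. The mutations are single substitutions in the endogenous genes, so counts per gene do not check them. How many clones each line represents is not given in the sources used here.

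Library totals ran from 10932482 to 19983741 counts (median 17551907), and log2 levels of replicates correlated with r of 0.962 to 0.988 across genes. Of 7 mesenchymal markers, 6 were well expressed, such as VIM at 2809 to 4887 CPM (counts per 1000000 counts of the scaled library), but S100A4 had at most 13 counts in any library. The epithelial, blood and hepatocyte markers had at most 5 counts and the endothelial markers at most 53. The balance between genes of low and high GC content also varied within and between groups. Taken as the log2 level of the lowest tertile of genes by GC minus that of the highest tertile, it lay 0.43 below its group mean in 6CD1m replicate 1 and 0.35 above it in 6CD1m replicate 3. In replicate 1 of WT on Tubastatin A and on PCI-34051, it lay 0.27 and 0.36 above the group mean. Measured from the mean of all 15 libraries, it was -0.70, -0.21 and 0.08 in 6CD1m and 0.22, 0.28 and 0.38 in 6CD2m. It was 0.35, 0.26 and 0.27 in 8CDm and -0.02, -0.61 and -0.53 in WT on PCI-34051. The 6CD1m libraries also had the lowest totals, 10932482 to 14068276 counts, against 16527907 to 19836664 in 6CD2m. GC balance, and for 6CD1m also depth, thus differed along with the group in these comparisons.

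The integrated stress response begins when a stress-sensing kinase phosphorylates the translation initiation factor eIF2alpha. General protein synthesis then slows while ATF4 mRNA is translated more, so much of the control of ATF4 lies in translation, which RNA counts do not measure. ATF4 is a transcription factor that switches on genes for amino acid synthesis and transport, for tRNA charging, and for feedback or cell death when stress lasts. It often binds a composite element, here searched as TGATGNAA, in which a C/EBP half-site meets an ATF half-site.

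Promoter windows were examined because ATF4 acts through such elements. In the RefSeq windows on GRCh38.p14, which run from 250 bases before to 50 bases after each annotated start site, TGATGNAA was found on either strand in 3.62% of 35116 windows. All 10 genes had a window, and the element was present in 3 of their 16 windows, those of ASNS, ATF3 and CHAC1. The cAMP response element TGACGTCA, whose letters cannot match together with TGATGNAA at one position, was found in 1.85% of all windows and in 0 of the 16. A match describes these letters in these windows only. The stretches below are the 3 with a match and, for DDIT4, whose level differed between groups by far more than its spread, the 100 bases before its start site, where no match was found. Capitals mark the element, in the ATF3 and ASNS stretches as TGATGNAA and in the CHAC1 stretch as its reverse complement.
ASNS (chr7:97872423-97872522, minus strand, element starting 68 bases before the start site): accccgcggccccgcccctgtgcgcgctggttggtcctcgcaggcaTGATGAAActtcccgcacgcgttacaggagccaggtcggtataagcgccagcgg
ATF3 (chr1:212565170-212565269, plus strand, element starting 191 bases before the start site): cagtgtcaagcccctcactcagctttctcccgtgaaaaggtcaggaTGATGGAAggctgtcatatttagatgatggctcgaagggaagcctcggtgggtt
CHAC1 (chr15:40953221-40953320, plus strand, element starting 209 bases before the start site): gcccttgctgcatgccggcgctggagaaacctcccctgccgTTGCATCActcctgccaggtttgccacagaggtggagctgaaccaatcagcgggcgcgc
DDIT4 (chr10:72273824-72273923, plus strand, no match): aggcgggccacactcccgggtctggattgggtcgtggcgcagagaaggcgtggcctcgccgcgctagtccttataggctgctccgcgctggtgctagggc

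Of the 10 genes, 5 differed among the 5 groups at an adjusted p below 0.001, beside 24.6% of all genes tested. These were ATF3, TRIB3, CHAC1, ASNS and DDIT4. At this threshold, the test gave no call for ATF4, DDIT3, SESN2, PSAT1 and PHGDH, whose adjusted p-values were 0.0038, 0.0027, 0.018, 0.0035 and 0.02. The group with the highest level was not the same for all of them. It was 6CD2m for CHAC1, ASNS, PSAT1 and DDIT4, 8CDm for ATF3, DDIT3 and TRIB3, and a WT group for ATF4, SESN2 and PHGDH. The lowest level was in 6CD1m for 7 genes, with exceptions in ATF4, ASNS and DDIT4.

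**Figure D1:**
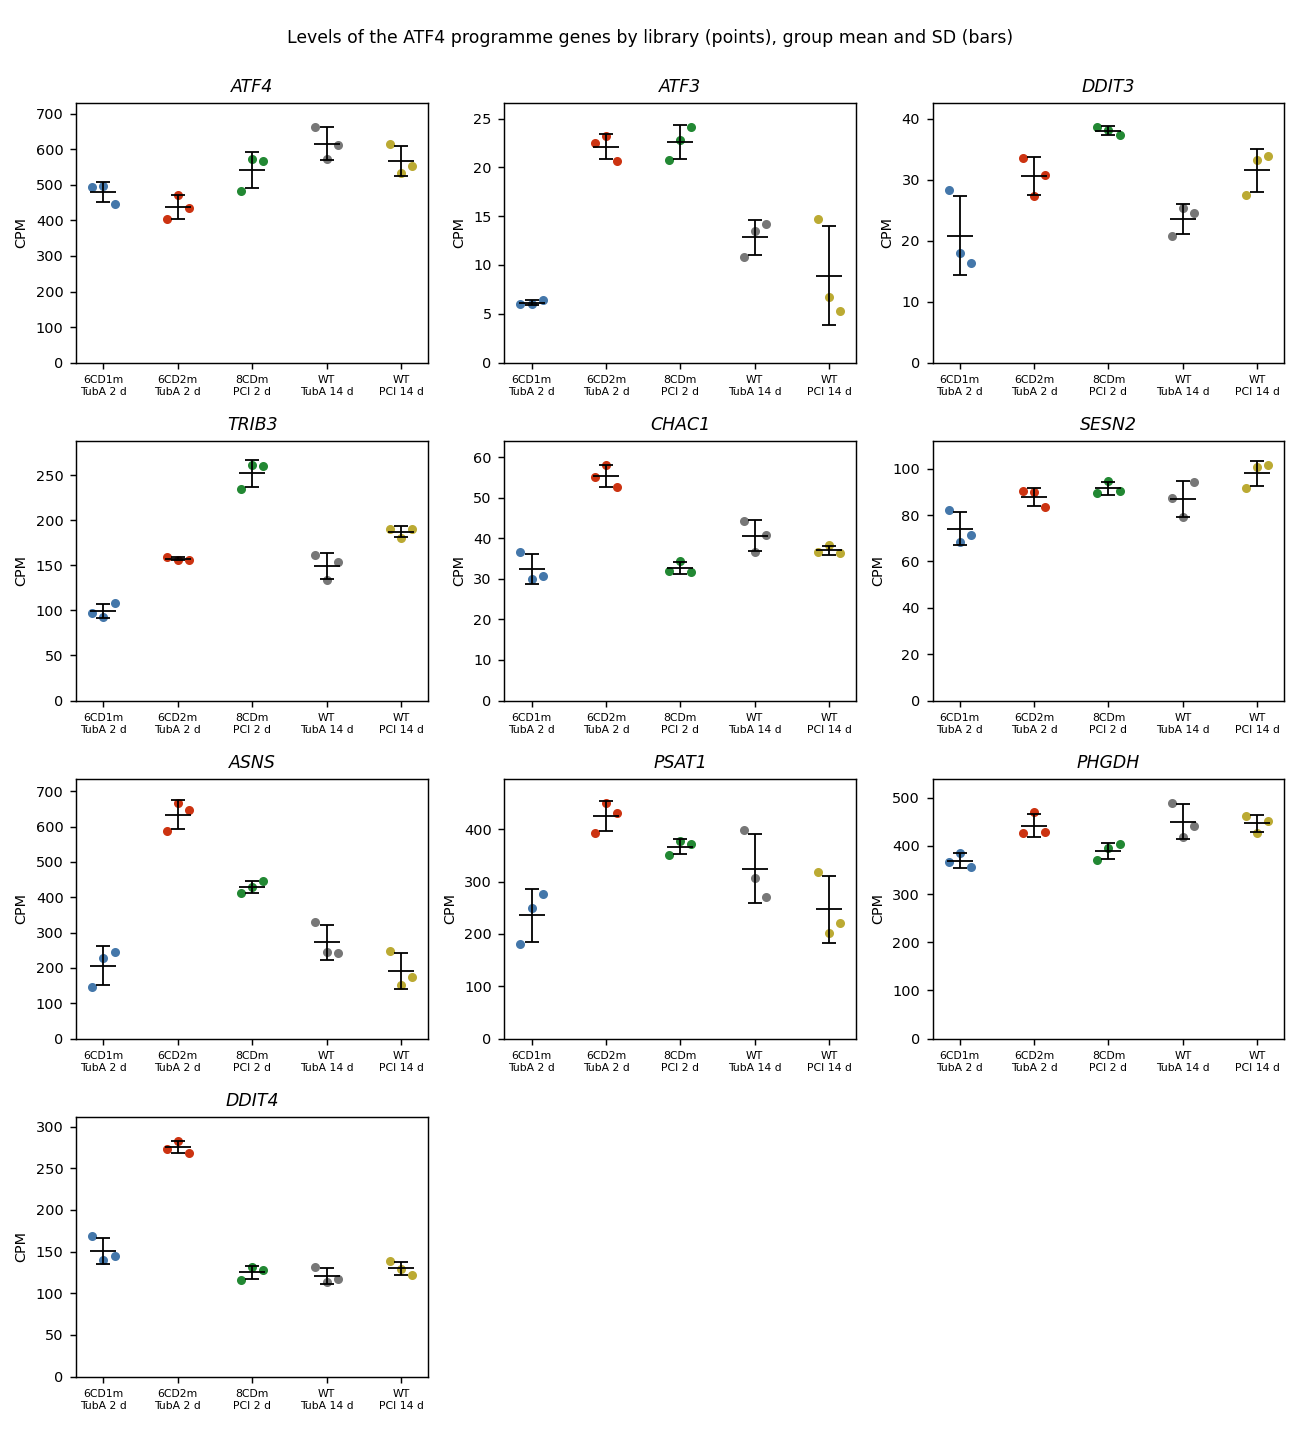
Level of each of the 10 genes in CPM (linear axes from 0) in the 15 libraries, by group, with TubA for Tubastatin A and PCI for PCI-34051. Points are single libraries and bars the group mean and SD (n = 3). DDIT4 and CHAC1 libraries of 6CD2m lie above every other library, and the ASNS libraries of 6CD2m and 8CDm lie above those of the other groups.

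The mRNA of ATF4, the transcription factor that gives the programme its name, was at 494, 498 and 447 CPM in 6CD1m, 404, 472 and 437 in 6CD2m, and 484, 574 and 566 in 8CDm. In WT cells it was at 664, 572 and 612 CPM on Tubastatin A and 614, 535 and 553 on PCI-34051. The lowest mean, 438 ± 34.1 CPM (SD, n = 3), belonged to 6CD2m and the highest, 616 ± 46 CPM, to WT on Tubastatin A, a 1.41-fold range. Neighbouring groups in this order overlapped in every case. The difference of 6CD2m from WT on Tubastatin A, -0.49 on the log2 scale (SE 0.0987), had an adjusted p of 0.0013 in edgeR's test and so missed the threshold. DESeq2 called ATF4 lower in 6CD2m, at -0.46 (adjusted p = 7.3e-05).

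ASNS, which makes asparagine from aspartate, had the widest range among the abundant members. Its level was 588, 668 and 646 CPM in 6CD2m and 412, 430 and 445 CPM in 8CDm. In 6CD1m it was 145, 228 and 246 CPM, with replicate 1 the lowest. WT cells had 330, 244 and 242 CPM on Tubastatin A and 248, 152 and 175 CPM on PCI-34051, with replicate 1 the highest in both. The 6CD2m and 8CDm libraries lay apart from each other and above all 9 libraries of the other groups, which overlapped among themselves.

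PSAT1 and PHGDH carry out steps of serine synthesis. PSAT1 was at 180, 249 and 277 CPM in 6CD1m, 394, 451 and 432 in 6CD2m, and 350, 378 and 372 in 8CDm. In WT cells it was at 398, 307 and 270 CPM on Tubastatin A and 319, 201 and 220 on PCI-34051. As for ASNS, replicate 1 was the lowest library of 6CD1m and the highest of each WT group. PHGDH had the narrowest range of the 10 genes, 1.22-fold between group means, from 369 ± 15.3 CPM in 6CD1m to 450 ± 36.1 CPM in WT on Tubastatin A. At 42.3% and 47% GC, PSAT1 and ASNS are among the members lowest in GC content, beside ATF3 at 46.7%.

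ATF3, a stress-induced transcription factor, was the least abundant member. It was at 5.98, 6.04 and 6.41 CPM in 6CD1m, and at 22.5, 23.2 and 20.7 CPM in 6CD2m. In 8CDm it reached 20.7, 22.8 and 24.2 CPM, which overlapped 6CD2m. WT cells had 10.8, 13.5 and 14.2 CPM on Tubastatin A. On PCI-34051, WT replicate 1 was at 14.7 CPM and the other libraries at 6.7 and 5.28 CPM. DDIT3, which encodes the death-associated factor CHOP, ranged from 16.3 to 38.7 CPM. Its highest mean was in 8CDm, 38 ± 0.683 CPM, and its lowest in 6CD1m, 20.8 ± 6.5 CPM. DDIT3 overlaps genes on the opposite strand, including MARS, which had up to 14040 counts, and the strand setting of the counting is not given in the sources used here. Values for DDIT3 are therefore uncertain.

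TRIB3, a pseudokinase that holds back ATF4, had its own order. The 8CDm libraries were highest at 235, 262 and 260 CPM, and WT on PCI-34051 followed at 191, 180 and 191 CPM. The 6CD2m libraries, at 159, 156 and 156 CPM, overlapped WT on Tubastatin A, at 161, 133 and 153 CPM. The 6CD1m libraries were lowest at 96.6, 92.9 and 108 CPM and lay apart from all others. CHAC1, which degrades glutathione, was instead highest in 6CD2m at 55.2, 58.1 and 52.6 CPM. All other CHAC1 libraries lay between 30 and 44.3 CPM.

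SESN2 and DDIT4 both restrain the growth kinase mTORC1. SESN2 was nearly level, between 68.5 and 102 CPM over all libraries, with a 1.32-fold range of group means. DDIT4 was at 274, 283 and 269 CPM in 6CD2m. It was at 169, 140 and 144 CPM in 6CD1m, 116, 131 and 128 in 8CDm, 132, 114 and 118 in WT on Tubastatin A, and 139, 128 and 122 in WT on PCI-34051. The 6CD2m libraries therefore lay above all others and the 6CD1m libraries next, while the last 3 groups overlapped. Per kilobase of exon, which allows levels to be compared between genes, PSAT1 (195), ATF4 (174), ASNS (142) and DDIT4 (134 CPM per kilobase) led in 6CD2m, and ATF3 was lowest at 5.48.

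The comparison of 6CD1m with 6CD2m cells, at one dose and time of Tubastatin A, gave the most calls among the 10 genes. In 6CD1m cells, 5 of the 10 were lower and 0 higher, beside 6.65% and 6.54% of all genes tested. These are 2577 genes, but 1088 with only the 6 libraries fitted, 4133 with DESeq2, and 1423 to 1604 without 6CD1m replicate 2 or any 1 of the 6CD2m libraries. ATF3 was 3.6-fold lower, at 6.14 ± 0.237 against 22.1 ± 1.3 CPM (log2 difference -1.85, SE 0.27, adjusted p = 9.2e-05). ASNS was 3.07-fold lower (-1.62, SE 0.198, adjusted p = 1.8e-05) and DDIT4 was 1.82-fold lower (-0.87, SE 0.0948, adjusted p = 6.3e-06). CHAC1 was 1.7-fold lower (-0.77, adjusted p = 3.2e-05) and TRIB3 1.58-fold lower (-0.66, adjusted p = 4.7e-05). In each of these 5 genes the libraries of the lines did not overlap. The share of all genes without overlap is not reported here, so this only describes genes already called.

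PSAT1 was at -0.85 (SE 0.184, adjusted p = 0.002) in the same comparison, with libraries apart but the threshold missed. The log2 differences of DDIT3, PHGDH and SESN2 were -0.56, -0.26 and -0.25, and that of ATF4 was 0.13, with a 95% confidence interval of -0.08 to 0.34. The median over the 10 genes was -0.72, beside 0.05 over all genes. When only the 6 libraries of this pair were fitted, TRIB3 (adjusted p = 0.0011) and CHAC1 (adjusted p = 0.0016) no longer passed. With offsets for GC content, log2 differences of ATF3, ASNS, TRIB3 and CHAC1 were -1.81, -1.60, -0.91 and -1.07, all past the threshold, and PSAT1, at -0.68 (adjusted p = 0.00019), and SESN2, at -0.49 (adjusted p = 0.00027), passed it too.

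**Figure D2:**
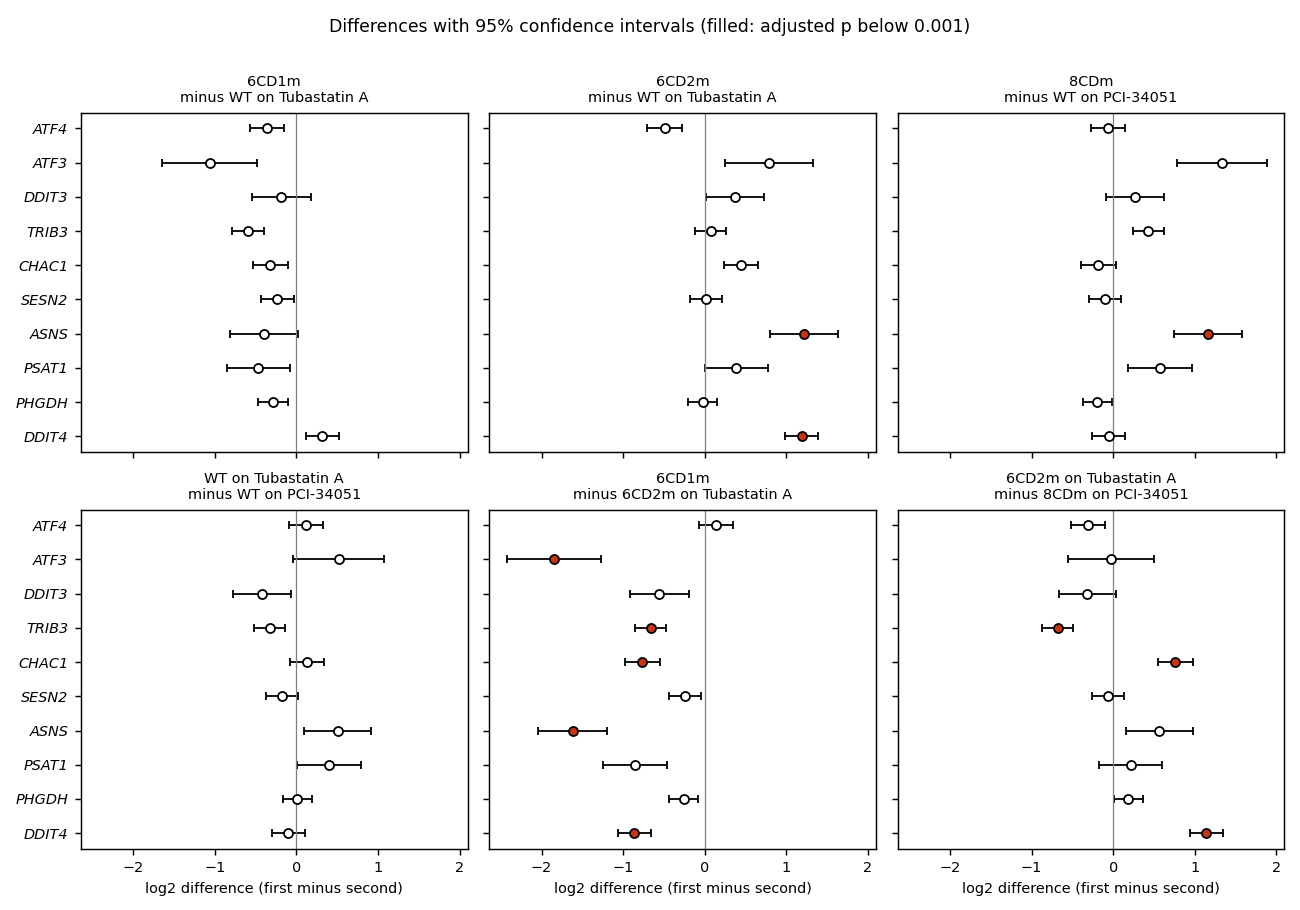
Log2 difference of each of the 10 genes (x axis, first-named group minus second) in 6 comparisons, with 95% confidence intervals from the model of all 15 libraries. Filled points passed an adjusted p of 0.001. The 6CD1m against 6CD2m panel holds 5 filled points, all below 0, and 2 panels hold none.

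Against WT cells on Tubastatin A, 6CD2m cells had higher ASNS and DDIT4. These were 2 of the 10 genes higher and 0 lower, beside 4.6% and 7.22% of all genes. DDIT4 was 2.27-fold higher (log2 difference 1.19, SE 0.0954, adjusted p = 2.6e-07). ASNS was 2.33-fold higher (1.22, SE 0.196, adjusted p = 0.0002), with no overlap of libraries. The ASNS call was lost when 6CD2m replicate 2 (adjusted p = 0.0014), 6CD2m replicate 3 (0.0013), WT replicate 2 (0.0021) or WT replicate 3 (0.0021) was left out, with log2 differences of 1.17 to 1.20.

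CHAC1, at 0.45 (adjusted p = 0.0027), and ATF3, at 0.79 (adjusted p = 0.026), had libraries apart but did not pass. With DESeq2, CHAC1 passed at 0.48 (adjusted p = 2.9e-05). TRIB3, SESN2 and PHGDH were at 0.07, 0.01 and -0.03, with 95% confidence intervals of -0.12 to 0.26, -0.18 to 0.21 and -0.20 to 0.15. The median of the 10 genes was 0.38, beside -0.01 over all genes. Over all genes, 899 were higher and 1410 lower in this comparison, but 1211 and 1228 with upper-quartile scaling, so the background shares depend on the scaling. The total of 2309 was 3512 with DESeq2, and 1440 to 1534 without 6CD2m replicate 1 or 3 or WT replicate 2 or 3.

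Of the 10 genes, 6CD1m cells had 0 higher and 0 lower than WT cells on Tubastatin A in edgeR's test, beside 0.271% and 0.522% of all genes. These are 155 genes, but 64 without 6CD1m replicate 2, 71, 83 and 82 without WT replicate 1, 2 or 3, 9 with only the 6 libraries fitted and 579 with DESeq2. At an adjusted p below 0.05 there were 5, beside 1847 of all 19535 genes tested, and DESeq2 called 1 at 0.001. TRIB3 came nearest, at -0.59 (SE 0.09, adjusted p = 0.0011), with 99.1 ± 7.74 against 149 ± 14.4 CPM and no overlap. It passed with DESeq2 or without the filter on low counts. ATF3 was at -1.06 (adjusted p = 0.028), ATF4 at -0.36 (adjusted p = 0.035) and DDIT4, the only member above 0, at 0.32 (adjusted p = 0.047). The median of the 10 was -0.34, beside -0.01 over all genes, which upper-quartile scaling moved to 0.10.

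8CDm cells had 1 of the 10 genes higher and 0 lower than WT cells on PCI-34051, beside 4.7% and 6.27% of all genes. These are 2142 genes, but 831 with only the 6 libraries fitted, 3773 with DESeq2, and 1119 to 1313 without any 1 of the 8CDm libraries, WT replicate 2 or WT replicate 3. The gene called was ASNS, 2.24-fold higher at 429 ± 16.7 against 192 ± 49.9 CPM (log2 difference 1.16, SE 0.196, adjusted p = 0.00036). The call was lost without any 1 of the 3 8CDm libraries, WT replicate 2 or WT replicate 3 (adjusted p from 0.0019 to 0.0034), and also when only the 6 libraries were fitted (adjusted p = 0.0012). The log2 difference of ASNS stayed between 1.02 and 1.40 throughout, and its libraries did not overlap.

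ATF3 was 2.52-fold higher in 8CDm (log2 difference 1.33, SE 0.258) and lay at the threshold with an adjusted p of 0.001. It passed at 1.92 (adjusted p = 4.3e-07) without WT replicate 1, the library in which ATF3 was at 14.7 CPM. TRIB3 was at 0.43 (adjusted p = 0.0017) and PSAT1 at 0.57 (adjusted p = 0.024). DDIT4, at -0.05, had a 95% confidence interval of -0.26 to 0.15. The median over the 10 genes was 0.11, beside -0.04 over all genes. With offsets for GC content the median was 0.28. ATF4, CHAC1, SESN2 and DDIT4 then turned from below to above 0, at 0.18, 0.19, 0.22 and 0.22 with adjusted p-values of 0.3, 0.26, 0.06 and 0.16. TRIB3 passed at 0.76 (adjusted p = 0.00075) and ATF3 at 1.32 (adjusted p = 0.00044).

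The 6CD2m and 8CDm lines, both at 2 days, differed in 3 of the 10 genes, 2 higher and 1 lower in 6CD2m, beside 5.6% and 4.37% of all genes. These are 1946 genes, but 4179 with only the 6 libraries fitted, 2978 with DESeq2, and 1260 to 1290 without 6CD2m replicate 3 or any 1 of the 8CDm libraries. DDIT4 was 2.2-fold higher in 6CD2m (1.14, SE 0.0952, adjusted p = 3.4e-07) and CHAC1 1.69-fold higher (0.76, SE 0.0995, adjusted p = 3.5e-05). TRIB3 was 1.6-fold lower (-0.68, SE 0.0893, adjusted p = 3.5e-05), a call lost with offsets for GC content (adjusted p = 0.0013), under which the log2 difference was -0.70. ASNS was at 0.56 (adjusted p = 0.042) with libraries apart. ATF3 was at -0.03, with a 95% confidence interval of -0.55 to 0.50.

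Whether the difference of 6CD2m from WT on Tubastatin A was unlike that of 8CDm from WT on PCI-34051 was tested with an interaction term. Of the 10 genes, 1 was positive and 0 negative, beside 2.51% and 2.65% of all genes. This was DDIT4, with a difference between the log2 differences of 1.24 (SE 0.134, adjusted p = 1e-05). CHAC1 was at 0.63 (adjusted p = 0.0052) and ASNS at 0.06, with a 95% confidence interval of -0.53 to 0.64.

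WT cells on Tubastatin A or on PCI-34051 differed in 0 of the 10 genes, 0 higher and 0 lower in edgeR's test, beside 0.333% and 0.087% of all genes. These are 82 genes in all, but 27 with the replicate number as a block, 1 with only the 6 libraries fitted and 670 with DESeq2. Leaving out any 1 of the 6 libraries gave 25 to 147. At an adjusted p below 0.05 there was 1, beside 1851 of all 19535 genes tested, and DESeq2 called 0 at 0.001. TRIB3 was at -0.33 (adjusted p = 0.035) with its libraries apart, but at -0.09 (adjusted p = 0.71) with offsets for GC content. DDIT3 was at -0.42 (adjusted p = 0.11). For DDIT4 the difference was -0.10 with a 95% confidence interval of -0.30 to 0.10, and for PHGDH 0.01 with an interval of -0.17 to 0.19. ATF3, at 0.52 (adjusted p = 0.19), passed at 1.102 (adjusted p = 0.00076) when WT on PCI-34051 replicate 1 was left out.

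The wider pathway was described with 113 other genes in 7 lists, of which 110 were tested. Their differences are from the edgeR model of all 15 libraries without GC offsets. Results of these genes under the alternatives are not reported here. In 6CD1m against 6CD2m cells, the aminoacyl-tRNA synthetases, which charge tRNAs with amino acids, had 5 of 13 genes lower and 0 higher, beside 6.65% and 6.54% of all genes tested, and a median of -0.60 beside 0.05. WARS was at 157.1, 215.9 and 232.1 CPM in 6CD1m and 528, 574 and 561 in 6CD2m, a log2 difference of -1.46 (adjusted p = 3.1e-06). XPOT, the tRNA exporter kept with this list, was at -0.96, IARS at -0.91 and SARS at -0.86. Among other targets of ATF4 or CHOP, 5 of 19 tested were lower and 0 higher, beside the same 6.65% and 6.54%. They included INHBE, a subunit of activin E, and GDF15, a stress-secreted cytokine, at -1.05 (adjusted p = 3.8e-06).

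INHBE differed most among the named pathway genes. It was at 130, 150 and 131 CPM in 6CD2m, 32.2, 35.9 and 34.5 CPM in 8CDm and 10, 11.2 and 9.97 CPM in 6CD1m. In WT cells it was at 14.9, 10.1 and 11.1 CPM on Tubastatin A and 7.2, 3.54 and 4.32 CPM on PCI-34051. Thus 6CD2m had 13.2-fold more than 6CD1m (log2 difference of 6CD1m minus 6CD2m -3.72, SE 0.199, adjusted p = 5.5e-09) and 11.4-fold more than WT on Tubastatin A (3.51, adjusted p = 5e-09). 8CDm had 6.74-fold more than WT on PCI-34051 (2.75, adjusted p = 1.3e-07).

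**Figure D3:**
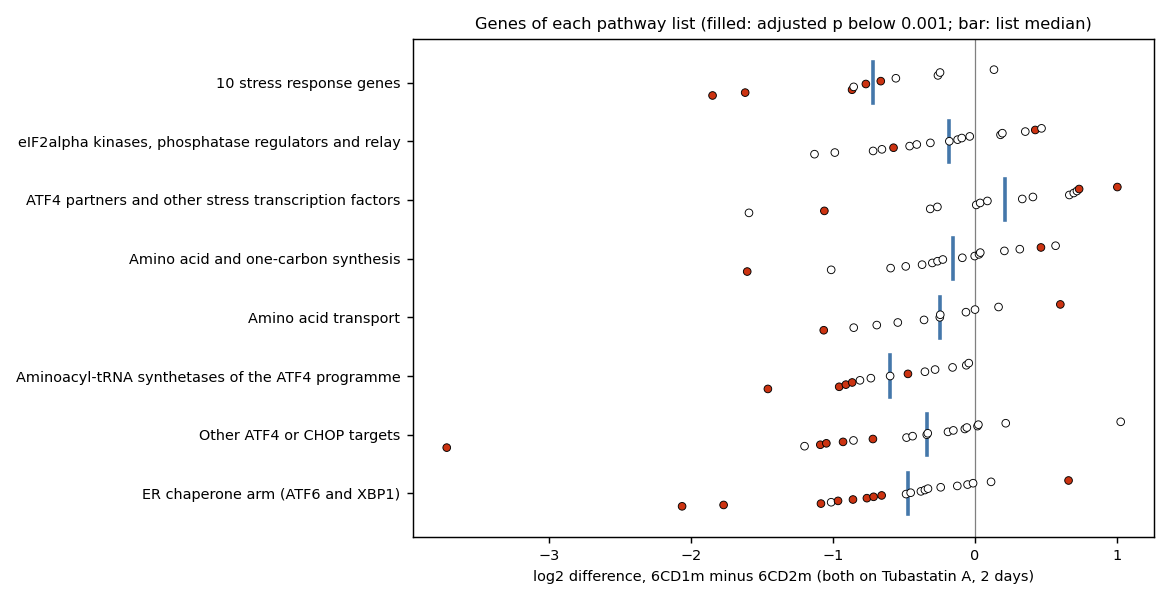
Log2 difference of 6CD1m minus 6CD2m (x axis) for the 10 stress response genes and for the tested genes of 7 pathway lists (rows). Each point is a gene, filled where the adjusted p was below 0.001, and the bars are list medians, from -0.72 for the 10 genes to 0.21 for the other stress transcription factors.

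The unfolded protein response of the endoplasmic reticulum has further arms, ATF6 and XBP1, which raise chaperones and degradation factors. Of their 20 genes, 8 were lower and 1 higher in 6CD1m than in 6CD2m, beside 6.65% and 6.54% of all genes, with a median of -0.47 beside 0.05 over all genes. DNAJB9, a co-chaperone, was at -2.06 (adjusted p = 1.1e-05), SEL1L, part of a degradation complex, at -1.77 (adjusted p = 0.0002), and CANX, the lectin chaperone calnexin, at -1.08. SEL1L was at 45.6, 80.4 and 103 CPM in 6CD1m, and CANX at 317, 461 and 534 CPM. As for ASNS, replicate 1 was for both genes the lowest library of 6CD1m and the highest of each WT group. CRELD2 was the gene that was higher, at 0.66. Against WT cells on Tubastatin A, 6CD2m cells had 2 of the 20 higher, DNAJB9 (1.37) and HYOU1 (0.71), and 1 lower, CRELD2 (-1.03). The shares of all genes there were 4.6% and 7.22%. Against WT on PCI-34051, 8CDm cells had 0 higher and 2 lower, PDIA4 (-1.07) and CRELD2 (-1.30), beside 4.7% and 6.27% of all genes.

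Genes of amino acid and one-carbon synthesis other than the members included ALDH1L2 and CTH. ALDH1L2, a mitochondrial folate enzyme, was at 157, 181 and 180 CPM in 6CD2m and 197, 190 and 193 CPM in 8CDm, but 47.9, 60.1 and 62.4 CPM in 6CD1m. It was higher in 6CD2m than in WT on Tubastatin A (1.17, adjusted p = 1.5e-05) and higher in 8CDm than in WT on PCI-34051 (1.24, adjusted p = 1.2e-05). CTH, which makes cysteine, was at 15.3, 14.6 and 14.7 CPM in 6CD2m and 2.73, 2.71 and 3.22 CPM in 8CDm, with an interaction of 2.05 (adjusted p = 0.00018).

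Of the 11 tested amino acid transporters, 1 was lower and 1 higher in 6CD1m than in 6CD2m, counts near the 6.65% and 6.54% of all genes. SLC7A11, the cystine transporter, was at -1.06 (adjusted p = 0.00025), and SLC6A9, a glycine transporter, at 0.60. SLC7A11 was also higher in 6CD2m than in 8CDm (1.05, adjusted p = 0.00031). Among the 17 kinases, phosphatase regulators and relay factors around eIF2alpha, 1 was lower (EIF2B1, -0.57) and 1 higher (EIF2B5, 0.42) in 6CD1m than in 6CD2m, beside 6.65% and 6.54% of all genes. IMPACT, a regulator of the kinase GCN2, was lower in 6CD2m than in WT on Tubastatin A (-0.68).

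Of the 14 partner and stress transcription factors, 3 were lower (CEBPB, FOSL1 and JUN) and 1 higher (NUPR1) in 6CD2m than in WT on Tubastatin A, beside 7.22% and 4.6% of all genes. CEBPB was at 47.9 ± 4.85 against 105 ± 14.5 CPM there (-1.14, adjusted p = 2e-05) and at 58.9 ± 1.37 in 8CDm against 159 ± 18.6 CPM in WT on PCI-34051 (-1.43, adjusted p = 2.8e-06). In 8CDm against WT on PCI-34051, 1 of the 14 was higher and 2 lower (CEBPB and FOSL1), beside 4.7% and 6.27% of all genes. The higher gene was CEBPG, which pairs with ATF4 (1.02, adjusted p = 7.8e-05). In 6CD1m against 6CD2m, 2 were higher (FOSL1 and JUN) and 1 lower (CEBPG, -1.06), beside 6.54% and 6.65% of all genes. The median of the list there was 0.21, beside 0.05 over all genes. NUPR1 was higher in 6CD1m than in WT on Tubastatin A (2.6-fold, adjusted p = 0.00082). Of the 19 other targets of ATF4 or CHOP, 3 were higher (KLHL24, FAM129A and INHBE) and 4 lower (VEGFA, STC2, RHBDD1 and EIF4EBP1) in 8CDm than in WT on PCI-34051, beside 4.7% and 6.27% of all genes. VEGFA, the angiogenic growth factor, was at -1.47 (adjusted p = 4.4e-06).

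**Figure D4:**
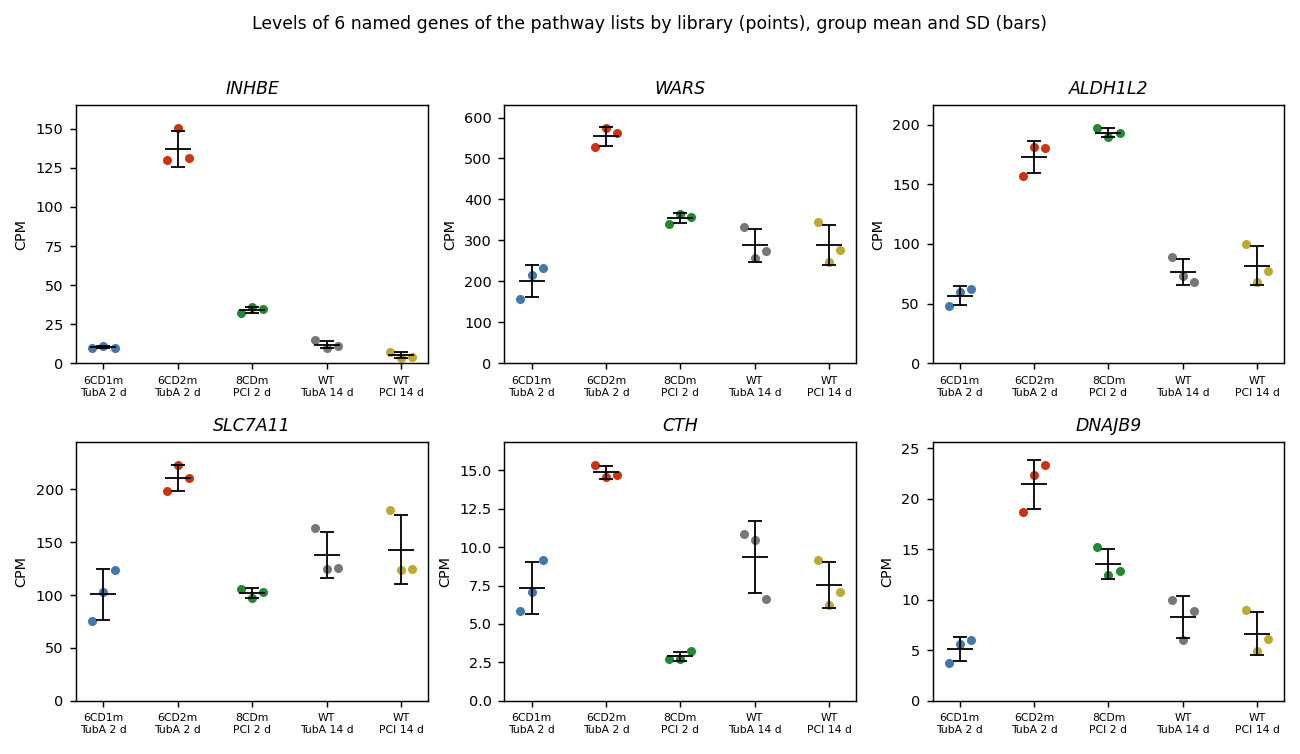
Levels of INHBE, WARS, ALDH1L2, SLC7A11, CTH and DNAJB9 in CPM (linear axes from 0) in the 15 libraries by group, with TubA for Tubastatin A and PCI for PCI-34051. Points are single libraries and bars the group mean and SD (n = 3). INHBE is highest in 6CD2m, at 130 to 150 CPM, and CTH lowest in 8CDm, at 2.71 to 3.22 CPM.

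The mean of the 10 genes, each standardized over the 15 libraries on the log2 scale, was -0.85 to -1.11 in the 6CD1m libraries, 0.56 to 0.83 in 6CD2m and 0.09 to 0.48 in 8CDm. It was -0.27 to 0.32 in WT on Tubastatin A and -0.19 to 0.25 in WT on PCI-34051. Among 11798 genes outside the lists, those whose levels followed this mean most closely over the 15 libraries were ANKRD42, MDGA2, SYNM, NFKB2 and ATP6V0A2, with Pearson r from 0.949 to 0.966. These libraries share groups, so the values describe a likeness of group levels.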

How the data were processed

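Total RNA was rRNA-depleted and sequenced, with 3 libraries for each of 5 groups. The authors deposited expected counts per gene, not normalized. The submitters' processing notes name Trimmomatic 0.39, Bowtie2 2.4.5, RSEM 1.3.3, DESeq2 1.38.2 and GRCh38, without their roles. The gene annotation and strand setting are not given in the sources used here. Values were rounded to integers, since 21.84% of those above 0 had decimals. GC content and exon length came from GENCODE 29.

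Counts were analysed with edgeR 4.0.16 in R 4.3.3, using TMM scaling, the filter on low counts and the quasi-likelihood test, with 1 mean per group over all 15 libraries. Genes were called at a Benjamini-Hochberg adjusted p below 0.001, the study's threshold. Levels are CPM on TMM-scaled library sizes. Alternatives included DESeq2 1.42.0, other scalings and filters, GC offsets, a replicate block and left-out libraries. The test was tried on simulated data, with genes changed in 6CD2m against WT on Tubastatin A. At the threshold it recovered 50 of 200 genes changed 2-fold, and 50 of the 100 above 10 CPM. Of 200 genes changed 4-fold it recovered 142, and 111 of the 111 above 10 CPM, with 0 false calls. A gene without a call may thus still differ by 2-fold. Named were all 10 members, at most 4 called genes per list and comparison with the largest changes, and the 5 genes most like the members' mean. A gene named in one comparison may be given in another, and some named genes are not reported here.

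The members and lists were chosen with earlier results of these data known. P-values measure the spread between libraries labelled as replicates. Same-numbered libraries of WT on Tubastatin A and WT on PCI-34051 deviated from their group means together (r of 0.505, 0.235 and 0.169). The labels do not say that they were paired. In the other comparisons r ran from -0.412 (replicate 1 of 6CD1m and WT on Tubastatin A) to 0.189 (replicate 1 of 6CD1m and 6CD2m).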

Additional observations from a re-analysis of the deposited data

Results flagged for a closer look

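The DDIT4 difference of Tubastatin A-treated 6CD2m from WT cells departed from that of 8CDm from WT cells on PCI-34051 by 1.24 on the log2 scale (SE 0.134, adjusted p = 1e-05 in edgeR's quasi-likelihood test of the interaction). DDIT4 was higher in 3 of 3 6CD2m libraries than in any WT library on Tubastatin A, while the 8CDm libraries overlapped those of WT on PCI-34051. Line, inhibitor, dose and, against WT, length of treatment differed together and cannot be told apart.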

How the results depend on the processing

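Of 1310 log2 differences of the 10 genes under alternatives, 1179 kept their side of the threshold and their size. Calls were lost in 20 and gained in 65, 46 otherwise moved and 0 reversed a call. The alternatives include a looser threshold and a minimum log2 difference, which change calls but no log2 difference. They also include the alternative, described below, without replicate 1 of 6CD1m and of both WT groups. In the order 6CD1m against WT, 6CD2m against WT, 8CDm against WT, WT against WT, 6CD1m against 6CD2m, 6CD2m against 8CDm, interaction and any difference, the calls were 0, 2, 1, 0, 5, 3, 1 and 5. A threshold of 0.05 gave 5, 5, 4, 1, 9, 5, 3 and 10. Of the 19535 genes tested, it called 1847, 6409, 7059, 1851, 7884, 5167 and 3767, in the same order up to the interaction. For any difference that count is not reported here. DESeq2 gave 1, 4 and 3 for the mutant lines against WT and 2 for the interaction. Over all genes it called 579, 3512, 3773 and 1909 there. Without the filter there were 2 for 6CD1m and 2 for 8CDm against WT, beside 428 and 3028 over all genes. At least 10 counts in every library gave 2 for 8CDm against WT, beside 2117. Upper-quartile scaling and GC offsets each gave 3 for 8CDm against WT, beside 2437 and 2245 over all genes. A log2 difference of at least 1 left 2 for 6CD1m against 6CD2m and 1 for 6CD2m against 8CDm, beside 1443 and 1242. Fitting only the 6 libraries compared gave 0 for 8CDm against WT and 3 for 6CD1m against 6CD2m, beside 831 and 1088. The cause of these shifts was not tested.

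Leaving out 1 library gave 1 to 2 calls for 6CD2m against WT and 0 to 2 for 8CDm against WT. It gave 0 to 1 for WT against WT and 1 to 2 for the interaction. Over all genes the calls were 1440 to 1635, 1119 to 2593, 25 to 147 and 648 to 1229, in this order. The replicate block gave 0 calls for 8CDm against WT, whose same-numbered libraries share only a number, and left 0 for WT against WT. Over all genes the block called 1411 and 27. It moved no other count of calls by over 1.5 times.

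An alternative without replicate 1 of 6CD1m and of both WT groups was chosen after the levels of members in those libraries had been seen, and by no rule. It gave 2, 6, 4 and 3 calls for 6CD1m, 6CD2m and 8CDm against WT and WT against WT, and 3 for the interaction. Over all genes the calls rose as well, to 269, 4465, 6137, 2052 and 2929 in the same order. Replicate 3 of 6CD1m lay nearly as far from its group mean in GC balance as replicate 1 and was kept. Apart from the tally above and the range of ASNS in 8CDm against WT, which include it, no statement rests on this alternative. Depth limits ATF3 most, which had 71 to 458 counts per library.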
